A study of Mus musculus with 8 samples.

Results

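The genes Pou5f1, Sox2 and Nanog encode OCT4, SOX2 and NANOG, the transcription factors at the centre of the pluripotency network of embryonic stem cells. Open chromatin around them was examined in a table of 134407 ATAC-seq peaks. ATAC-seq marks open chromatin by the adapters that the transposase Tn5 leaves there. Every peak whose centre lay within 120 kb of the annotated span of one of the 3 genes was taken, whatever its value. This gave 26 peaks around Pou5f1, 45 around Sox2 and 51 around Nanog, 122 in all. The genes lie on the forward strand at chr17:35506032-35510777, chr3:34649995-34652461 and chr6:122707489-122714633 in GRCm38. Peaks are named below by the distance of their centre from the gene's start, with upstream negative.

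The cells were E14 cells, a wild-type line of mouse embryonic stem cells, grown on gelatin in medium with serum and LIF. For the 4 paused samples INK128, which inhibits the growth-controlling kinase mTOR, was added at 200 nM for 24 h, and for the 4 control samples it was not. Both groups share the line, the medium and the gelatin, and what the controls received in place of the inhibitor is not stated in the labels. Each library came from 50000 live cells, and nothing says that the 4 of a group were separate cultures, so that p-values measure only the spread between these libraries.

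OCT4, SOX2 and NANOG bind enhancers of their own genes and of each other's, and together hold the network in place. Pou5f1 has a distal enhancer that is used in naive cells and a proximal enhancer that is used in primed, epiblast-like cells. Sox2 has the nearby regulatory regions SRR1 and SRR2 and a far downstream cluster, the Sox2 control region, on which its expression in embryonic stem cells depends. Nanog has an enhancer close upstream and more distant ones on both sides, among neighbours that are themselves active in early embryos.

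Peaks were assigned to these regions by distance from the start alone, which places a peak and says nothing of its function. The windows of the Pou5f1 promoter, proximal enhancer and distal enhancer ran from -0.7 to 0.5 kb, -1.7 to -0.7 kb and -2.7 to -1.7 kb. Those of Sox2 were -1.0 to 1.0 kb for the promoter, -5.0 to -3.0 kb for SRR1, 3.0 to 5.0 kb for SRR2, 16 to 20 kb for the +18 kb region and 100 to 120 kb for the control region. Those of Nanog were -1.0 to 1.0 kb for the promoter, -7.0 to -3.0 kb, -48 to -42 kb and 57 to 63 kb. Of the 122 peaks, 17 fell in such a window: 1 at Pou5f1, 12 at Sox2 and 4 at Nanog. No peak of the table lay in the promoter or the proximal enhancer window of Pou5f1.

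The DNA just upstream of the 3 starts is shown because the promoters of Nanog and Sox2 held a peak and that of Pou5f1 held none. The letters are those of RefSeq on GRCm38.p6, read on the forward strand, with matches to the motifs named after them in capitals. The Nanog stretch is the whole promoter peak at chr6:122707273-122707473. The Sox2 stretch is the part of the promoter peak that lies before the start, chr3:34649828-34649994. The Pou5f1 stretch is the 250 bases before the start, chr17:35505782-35506031.
Nanog promoter peak: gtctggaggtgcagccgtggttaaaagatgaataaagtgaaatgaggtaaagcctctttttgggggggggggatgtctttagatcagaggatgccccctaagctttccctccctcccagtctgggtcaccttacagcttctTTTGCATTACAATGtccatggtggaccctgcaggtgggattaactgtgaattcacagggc
Sox2 promoter peak: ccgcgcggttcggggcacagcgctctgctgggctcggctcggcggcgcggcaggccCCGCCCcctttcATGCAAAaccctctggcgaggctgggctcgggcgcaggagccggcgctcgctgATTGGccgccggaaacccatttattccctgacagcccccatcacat
Pou5f1 upstream: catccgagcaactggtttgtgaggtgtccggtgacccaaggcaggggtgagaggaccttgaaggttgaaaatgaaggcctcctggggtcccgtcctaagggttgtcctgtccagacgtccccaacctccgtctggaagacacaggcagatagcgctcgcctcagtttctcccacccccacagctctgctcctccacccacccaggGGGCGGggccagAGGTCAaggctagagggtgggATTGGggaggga

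Both strands were searched for the joint site of SOX2 and OCT4, which is CATTGT, any base and then ATGC. They were also searched for the octamer ATGCAAAT and its shorter part ATGCAAA, the nuclear receptor half-site AGGTCA, the GC box GGGCGG and the CCAAT box. In the Nanog peak the joint site was found on the reverse strand, 72 bases before the start, where it overlaps a reverse ATGCAAA that begins 75 bases before it. Of the 250-base upstream stretches of 32851 promoters, 19 (0.0578%) hold the joint site and 4.12% hold ATGCAAA. The Sox2 stretch holds ATGCAAA 99 bases before the start, a reverse GGGCGG at 111 bases and a reverse CCAAT at 46 bases. The Pou5f1 stretch holds AGGTCA at 33 bases, GGGCGG at 45 bases and a reverse CCAAT at 12 bases. The printed stretches differ in length, and only that of Pou5f1 is the full 250 bases. In the 250 bases before their starts, which run beyond what is printed, Sox2 and Nanog hold AGGTCA too, at positions -244 and -248 from the start, and Sox2 holds GGGCGG once more upstream of the printed part. Of all promoters, 14.02% hold AGGTCA, 32.7% GGGCGG, 33.9% CCAAT and 1.60% the octamer ATGCAAAT, which none of the printed stretches holds. The GC content of the stretches was 50.2% for Nanog, with 1 CG pair, 70.7% for Sox2, with 19, and 62% for Pou5f1, with 8. The median of all promoters was 52.4%. A match describes these letters only.

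Values are scaled reads: the reads of a peak, all of one width, divided by 1 factor per library. The reads in all peaks ranged from 4434037 in control 3 to 21161767 in control 1. The median peak held 91 reads in control 1 and 18 to 29 in the other libraries, and 3 reads, the most that a count of 0 allows, are a value of 1.04 in control 1 and 5.08 in control 3. Of the 6 embryonic stem cell markers, 5 had a peak within 1 kb of a gene end, all but Pou5f1, with a summed value of 748 to 821 in control and 909 to 1040 in paused libraries. Markers of other cell types had lower sums: 196 to 219 and 210 to 253 for 4 of 5 trophoblast markers, 237 to 283 and 261 to 303 for 3 of 5 primitive endoderm markers, and 284 to 378 and 352 to 412 for 4 of 5 fibroblast markers. These sums run over fewer markers, and single markers overlapped in height. Control means ran from 27.8 (Esrrb) to 230 (Sox2) for stem cell markers and from 18.6 (Cdx2) to 147 (Thy1) for the others. No peak lay near the ends of Eomes, Gata4, Foxa2 or Col3a1. Of these other markers only Gata3 was called, from 84.1 ± 11.6 to 122 ± 10.0 (SD, n = 4; limma-trend adjusted p = 0.00566), and a part of other cells in the results was not tested. The sum over all peaks was 11.5% higher in paused libraries, and the median change over the tested peaks of the whole table was 0.10 on the log2 scale, a shift that every single change includes.

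At the 3 genes together, few peaks changed. Of the 119 peaks tested, those with a mean value of at least 10, 7 rose and 1 fell in paused cells. These passed 0.05 after Benjamini-Hochberg adjustment over the 127402 peaks in the limma-trend fit of the whole table. That is 6.72% of the tested peaks, against 13.9% of all tested peaks, 11.0% higher and 2.91% lower. At an unadjusted p under 0.05 there were 25. The share of all tested peaks at that threshold was not worked out, so this count is not read as many or few. The called peaks numbered 2 higher and 1 lower of 26 at Pou5f1, 1 higher of 42 at Sox2 and 4 higher of 51 at Nanog. The 4 paused values lay wholly above the 4 control values at 12 peaks and wholly below at 5, against 13.0% and 4.36% of all tested peaks. Of the 122 peaks, 6 have in the authors' deposited table an FDR under 0.05, 2 at Pou5f1, 1 at Sox2 and 3 at Nanog, against 11.0% of that table. The other 3 peaks, all at Sox2, were too weak to be tested.

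The median log2 change was 0.11 at Pou5f1, 0.05 at Sox2 and 0.06 at Nanog, and 0.06 over the 3 loci. With TMM scaling in edgeR these medians were -0.019, -0.066 and -0.034, so that their sign depends on the scaling. Of the 119 changes, 73 were above 0, against 61.3% of all tested peaks. Change also depended on strength across the table, with a median of -0.20 in the weakest 10% of peaks and 0.20 in the strongest. Against the median of all peaks in the same 10% of strength, 53 of the 119 peaks lay above and 66 below. The plot of change against strength shows these points around that line.

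**Figure D1:**
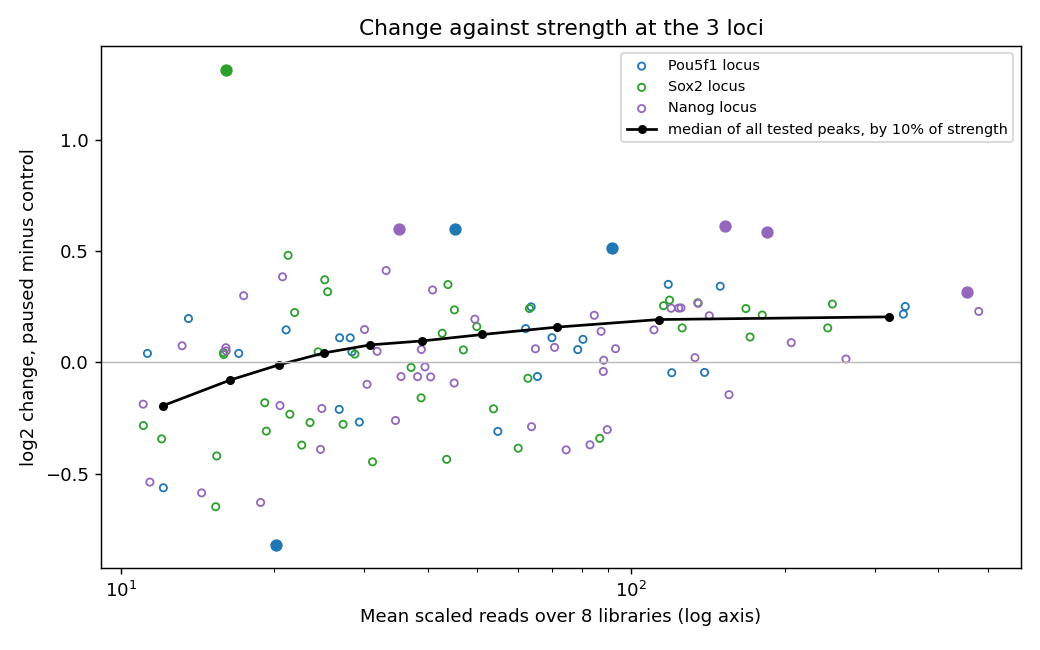
Log2 change, paused minus control, of the 119 tested peaks against their mean scaled reads over the 8 libraries (log axis), coloured by gene; filled points have an adjusted p under 0.05 and the black line joins the medians of all tested peaks in each 10% of strength. Most points scatter around the line, and the 8 filled points lie between -0.82 and 1.31.

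Of the 8 called peaks, those at -82.8 kb and +63.1 kb of Nanog kept their call in all 17 alternatives. The peak at -118.5 kb of Sox2 kept it in the 16 that tested it, but its control mean of 8.88 was under the minimum of 10, so that it was tested only because it was high in paused libraries. All 3 rose, and none has its centre in a promoter or enhancer window named above. That at +63.1 kb of Nanog lies just past the window of the +60 kb enhancer, whose limit of 63 kb was set by distance alone. The map of the 3 loci shows where they sit.

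**Figure D2:**
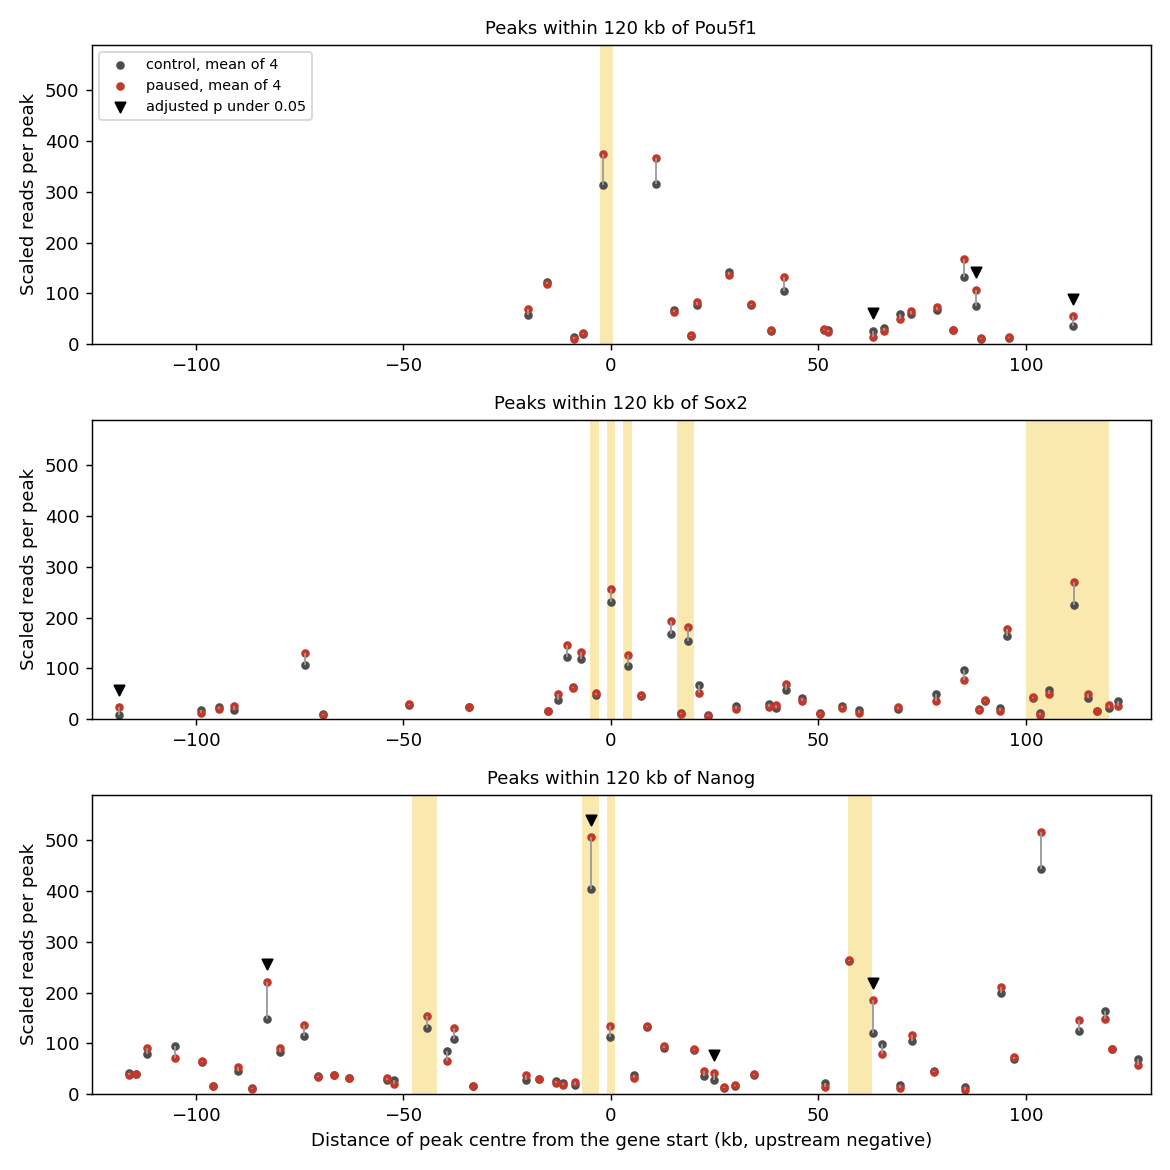
Mean scaled reads of each peak in 4 control and 4 paused libraries against the distance of the peak centre from the gene's start in kb, with a grey line joining both means; shaded bands are the promoter and enhancer windows and triangles mark the 8 peaks with an adjusted p under 0.05. The triangles lie mostly outside the bands, with 1 of them, at -4.8 kb of Nanog, inside one.

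Pou5f1 lies in the class I region of the major histocompatibility complex. All its 26 peaks lay between -20.0 kb and +111.2 kb, and the next peak upstream in the table was at -146.7 kb, with H2-Q6, H2-Q7 and H2-Q10 in between. These are class I genes of a family of near-identical copies, and how reads that map to several places were treated is not given in the sources used here. Of the 26, 10 lay inside other genes: 3 in Cchcr1, 2 in Cdsn, 1 in Psors1c2, 3 in the noncoding RNA gene Gm41577 and 1 in the noncoding RNA gene Gm32362. The locus was of ordinary density, with 10.6 peaks per 100 kb, at the 60.1 percentile of 21883 protein-coding genes, whose median was 8.60. The 3 strongest peaks held 40.6% of the locus sum.

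The distal enhancer held the strongest peak of the locus, at -2.0 kb (chr17:35503943-35504143), which also lies inside Gm32362 and is at the 99.0 percentile of all peaks. Its values were 307, 328, 327 and 295 in control libraries 1 to 4, and 341, 379, 386 and 391 in paused libraries 1 to 4. Every paused library was above every control library. The means were 314 ± 16.001 and 374 ± 22.6 (SD, n = 4 each), a log2 change of 0.25 (SE 0.10) that did not pass the limma-trend test (adjusted p = 0.0898). The change was 0.15 above the median of all peaks and 0.05 above that of peaks of like strength.

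Nearly as strong was the peak at +11.0 kb (chr17:35516889-35517089), which covers the region between the opposed starts of Tcf19, a gene with a role in cell proliferation, and Cchcr1. Its values were 317, 321, 296 and 328 in control and 330, 375, 399 and 366 in paused libraries. The groups did not overlap here either, though control 4 and paused 1 nearly met. This was a log2 change of 0.22 (SE 0.10, limma-trend adjusted p = 0.151), and 0.01 beyond peaks of like strength. The third peak by strength, at +85.1 kb inside Gm41577, went from 132 ± 19.7 to 167 ± 25.4 (SD, n = 4; log2 change 0.34, limma-trend adjusted p = 0.0727), with overlapping groups.

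The 3 called peaks of the Pou5f1 locus all lay more than 50 kb downstream, and none of them kept its call under every alternative. The peak at +88.0 kb (chr17:35593893-35594093, inside Gm41577) rose, with 66.0, 74.1, 69.4 and 92.6 in control and 110, 94.6, 107 and 120 in paused libraries. The groups were apart, with control 4 the closest to the paused values. On the log2 scale it rose by 0.51 (SE 0.14, limma-trend adjusted p = 0.0112). The call was lost in 4 of 17 alternatives, among them DESeq2 (adjusted p = 0.119), the loess correction on strength (0.134), and the fits without control 1 (0.0508) or paused 4 (0.0533).

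The peak at +111.2 kb (chr17:35617169-35617369) lies 654 bp from an end of Gm9573. It rose from 33.9, 39.4, 37.3 and 30.9 to 71.5, 47.3, 55.9 and 44.5, with the groups apart and paused 1 the highest. On the log2 scale the rise was 0.60 (SE 0.18, limma-trend adjusted p = 0.0228), and the call was lost in 6 of 16 alternatives, with adjusted p up to 0.176 in DESeq2. Leaving out control 1, control 4 or paused 1 gave 0.0587, 0.0640 and 0.111 in limma-trend.

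The peak at +63.04 kb (chr17:35568970-35569170), 125 bp from an end of 2300002M23Rik, was the only one of the 3 loci that fell in the limma-trend fit of the deposited values. Its values were 24.9, 16.7, 37.3 and 25.0 in control and 21.9, 11.0, 12.4 and 11.7 in paused libraries. These rest on 7 to 72 reads, and paused 1 lay within the range of the controls. The log2 change was -0.82 (SE 0.28, limma-trend adjusted p = 0.0460), and the call was lost in 8 of 16 alternatives. Without control 1, 3 or 4, or paused 2, 3 or 4, limma-trend gave an adjusted p of 0.0969, 0.186, 0.0862, 0.106, 0.0764 and 0.111.

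Sox2 lies in a wide interval with few protein-coding genes, inside the long noncoding RNA gene Sox2ot. The nearest gene end of a protein-coding gene was that of Sox2 even for its farthest upstream peak. Of the 45 peaks, 18 lay in Sox2ot, 1 of them also in Gm42205, 6 in the predicted genes Gm3143, Gm34941 and Gm38509, and 21 in no other gene. The density, 18.6 peaks per 100 kb, was at the 92.0 percentile of protein-coding genes. The 7 peaks of the control region, the 2 of the +18 kb region and the single peaks of the promoter, SRR1 and SRR2 held 39.3% of the locus sum, and none of those tested was called.

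The promoter peak of Sox2 at -0.1 kb (chr3:34649828-34650028), printed in part above, spans the start of the gene. Its values were 255, 232, 218 and 215 in control and 242, 259, 268 and 253 in paused libraries. Control 1 lay among the paused values. The means were 230 ± 18.3 and 256 ± 10.9 (SD, n = 4 each), a log2 change of 0.15 (95% confidence interval -0.06 to 0.37, limma-trend adjusted p = 0.353).

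SRR1 and SRR2, on both sides of the gene, were weaker than the promoter. SRR1 at -3.6 kb (chr3:34646265-34646465) had 47.1 ± 7.12 in control and 52.6 ± 6.67 in paused libraries (SD, n = 4; log2 change 0.16, limma-trend adjusted p = 0.570). SRR2 at +4.0 kb (chr3:34653922-34654122) had 108, 99.1, 103 and 107 in control and 107, 158, 96.2 and 148 in paused libraries. Paused 2 and 4 were high, while paused 1 lay within the control range and paused 3 below it. The paused SD of 30.0 was larger than the control SD of 3.95, and the log2 change of 0.25 did not pass (95% confidence interval -0.03 to 0.54, limma-trend adjusted p = 0.228).

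The +18 kb region held a strong peak at +18.6 kb and a weak one at +16.9 kb. The strong one (chr3:34668518-34668718) went from 154 ± 6.60 to 182 ± 15.8 (SD, n = 4; log2 change 0.24, limma-trend adjusted p = 0.158), and only paused 3, at 160, lay within the control range of 149 to 163. The weak one had 12.8, 15.5, 10.2 and 13.2 in control and 3.46, 12.6, 15.5 and 12.9 in paused libraries (log2 change -0.34, limma-trend adjusted p = 0.578). Its low value in paused 1 rests on 3 reads, and without that library the change was 0.084. Outside the windows, the peak at +14.4 kb was the third by strength at this gene, with 167 ± 11.1 and 194 ± 21.4 (SD, n = 4; log2 change 0.21, limma-trend adjusted p = 0.223).

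In the Sox2 control region, 1 of the 7 peaks stood out by height. The peak at +111.5 kb (chr3:34761356-34761556) was as high as the promoter, with 210, 264, 215 and 215 in control and 269, 270, 272 and 269 in paused libraries. The paused values were nearly the same, with an SD of 1.17, and all above the controls, of which control 2 came close. This difference of 0.26 on the log2 scale did not pass (95% confidence interval 0.04 to 0.48, limma-trend adjusted p = 0.0988). Without control 2 it was 0.34 and passed (limma-trend adjusted p = 0.0371). It passed in no other of the 17 alternatives, where the log2 change went down to 0.05. The paused values rest on 171 to 233 reads.

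The other control region peaks were lower, and none of those tested passed. Their log2 changes were 0.13 at +101.7 kb, -0.21 at +105.5 kb, 0.24 at +114.9 kb, 0.04 at +117.1 kb and 0.37 at +119.9 kb, with limma-trend adjusted p from 0.348 to 0.939. The peak at +103.4 kb, with a mean of 11.9 in control and 7.89 in paused libraries, was under the minimum and not tested.

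The single call at Sox2 lay at the far upstream edge, at -118.5 kb (chr3:34531404-34531604), in no gene. It was a weak peak that had the largest log2 change of all 119: 7.61, 5.97, 10.2 and 11.8 in control and 18.5, 25.2, 20.2 and 29.3 in paused libraries. All paused values were above all control values. The means were 8.88 ± 2.58 and 23.3 ± 4.93 (SD, n = 4 each), 2.62-fold higher, on 5 to 22 reads in control and 13 to 25 in paused libraries. The log2 change was 1.31 (SE 0.31, limma-trend adjusted p = 0.00327), and between 1.16 and 1.48 in the 16 alternatives, with adjusted p up to 0.0265. Since the peak passed the minimum only through its paused values, its test is no independent support for a change. With no minimum, the limma-trend adjusted p was 0.00318. It lies close to the outer limit of the distance rule.

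Nanog lies on chromosome 6 among Apobec1, an RNA-editing enzyme gene, the germ cell and oocyte gene Dppa3, the TGF-beta family gene Gdf3, the glucose transporter gene Slc2a3 and the forkhead gene Foxj2. Of its 51 peaks, 14 lay in Slc2a3, 4 in Apobec1, 4 in Foxj2, 1 each in Dppa3, Gdf3 and Nanog itself, and 26 in no gene. With 20.6 peaks per 100 kb this was the densest of the 3 loci, at the 96.7 percentile of protein-coding genes.

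The -5 kb enhancer peak at -4.8 kb (chr6:122702542-122702742) was the strongest promoter or enhancer peak of all 3 genes, at the 99.9 percentile of the table. It had 355, 405, 450 and 410 in control and 554, 429, 492 and 548 in paused libraries. Paused 2, the lowest paused library, was below control 3. The means were 405 ± 39.2 and 506 ± 58.3 (SD, n = 4 each), a log2 change of 0.32 (SE 0.10) that passed the limma-trend test (adjusted p = 0.0348). This was the only called peak of the 17 in promoter and enhancer windows.

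That call was lost in 8 of 17 alternatives. The peak had an adjusted p of 0.262 in DESeq2 and 0.128 in edgeR with TMM. With limma-trend, TMM rescaling gave 0.175 and the loess correction 0.467. Without control 1, control 4, paused 1 or paused 4 it was 0.113, 0.0692, 0.100 and 0.139. Its log2 change lay between 0.11 and 0.39 in all 17, and in the authors' deposited table the peak has an FDR of 0.0274.

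The Nanog promoter peak at -0.1 kb, printed above with its joint SOX2 and OCT4 site, was weaker than the enhancer. Its values were 123, 102, 129 and 101.4 in control and 135, 125, 132 and 145 in paused libraries, so that paused 2 lay below control 3. The means were 114 ± 14.3 and 134 ± 8.58 (SD, n = 4 each; log2 change 0.24, 95% confidence interval -0.01 to 0.50, limma-trend adjusted p = 0.198).

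The more distant enhancer peaks did not pass. That of the -45 kb enhancer at -44.4 kb (chr6:122662982-122663182) went from 131 ± 8.67 to 153 ± 27.7 (SD, n = 4; log2 change 0.21, limma-trend adjusted p = 0.290), and paused 1, at 115, was below every control. That of the +60 kb enhancer at +57.4 kb (chr6:122764743-122764943), inside Slc2a3, had 260, 275, 262 and 251 in control and 255, 270, 282 and 253 in paused libraries. Here the groups lay on top of each other. The log2 change was 0.015 (95% confidence interval -0.20 to 0.23, limma-trend adjusted p = 0.945), and its sign depends on the scaling, with -0.096 in edgeR with TMM.

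The next peak, at +63.1 kb (chr6:122770491-122770691), rose, and the difference between the neighbours was not tested. It also lies inside Slc2a3, and its centre is just past the window of the +60 kb enhancer. Its values were 120, 100, 124 and 140 in control and 177, 177, 216 and 171 in paused libraries, with the groups apart. The means were 121 ± 16.1 and 185 ± 20.6 (SD, n = 4 each), 1.53-fold higher. The log2 change was 0.61 (SE 0.13, limma-trend adjusted p = 0.000773), and between 0.41 and 0.69 in the 17 alternatives, with adjusted p up to 0.0212.

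The peak at -82.8 kb (chr6:122624605-122624805), 1719 bp from an end of Dppa3, rose by a like amount. It had 134, 116, 173 and 168 in control and 178, 219, 251 and 235 in paused libraries. The groups were apart, although control 3 and paused 1 differed little. The means were 148 ± 27.1 and 221 ± 31.7 (SD, n = 4 each), 1.496-fold higher. The log2 change was 0.59 (SE 0.13, limma-trend adjusted p = 0.00188), and between 0.38 and 0.69 in the 17 alternatives, with adjusted p up to 0.0363.

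The remaining call at this locus, at +24.8 kb inside Slc2a3, is named here after its values were seen. It went from 28.2 ± 8.90 to 42.1 ± 4.22 (SD, n = 4; log2 change 0.60, limma-trend adjusted p = 0.0471) and was called in 6 of the 17 fits that tested it. The strongest peak of the locus, at +103.5 kb (chr6:122810890-122811090), between Slc2a3 and Foxj2, had 443 ± 63.9 in control and 517 ± 54.0 in paused libraries (SD, n = 4; log2 change 0.23, limma-trend adjusted p = 0.148).

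No peak at Nanog or Sox2 was called lower in the limma-trend fit of the 8 libraries, but other settings gave lower calls. At Nanog, 4 higher and 0 lower became 2 and 2 with TMM rescaling and in edgeR with TMM, and 2 and 4 after the loess correction. At Sox2, 1 and 0 became 1 and 2 in all 3 of these. At Pou5f1, 2 and 1 became 1 and 1 with TMM rescaling and 0 and 0 with the loess correction, and stayed 2 and 1 in edgeR with TMM. In the whole table these settings called 5.99% higher and 4.15% lower with TMM rescaling, 7.13% and 5.54% in edgeR with TMM, and 5.10% and 3.50% after the loess correction. DESeq2, with 3.06% higher and 1.49% lower in the whole table, called 2 peaks higher at Nanog, 1 higher at Sox2 and none at Pou5f1. With the deposited scaling kept, Nanog had 4 higher and 1 lower in edgeR, where the whole table had 16424 and 4621 of 127402. With a minimum of 50 on the same scaling it had 3 and 1 of 25, where the whole table had 10159 and 751 of 45273. Nanog had 1 lower without control 2 or paused 4, and Sox2 had 1 lower without control 3 or paused 4. The whole table had 2945, 2587 and 2314 lower of 127402 without control 2, paused 4 and control 3. The lower calls under the 3 scalings were at +21.2 kb in Sox2ot and at +85.1 kb for Sox2, and at -105.1 kb in Apobec1, -39.6 kb, +65.3 kb and +119.1 kb for Nanog.

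The promoter and enhancer peaks kept nearly the same order of height in both groups. In control libraries the -5 kb enhancer of Nanog (355 to 450) was highest, and the Pou5f1 distal enhancer (295 to 328) came next, with no overlap between them. The +60 kb enhancer of Nanog, the Sox2 promoter and the Sox2 control region peak followed and overlapped with their neighbours in this order. The +18.6 kb peak of Sox2 came next, apart from both neighbours. The -45 kb enhancer and the promoter of Nanog and SRR2 overlapped in turn, and SRR1 was lowest, at 38.2 to 55.7. In paused libraries the control region peak had a higher mean than the Sox2 promoter (270 against 256), where in control libraries it had a slightly lower one (226 against 230). Its paused mean was also above that of the +60 kb enhancer of Nanog (265), so that it was the fifth by mean in control and the third in paused libraries.

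**Figure D3:**
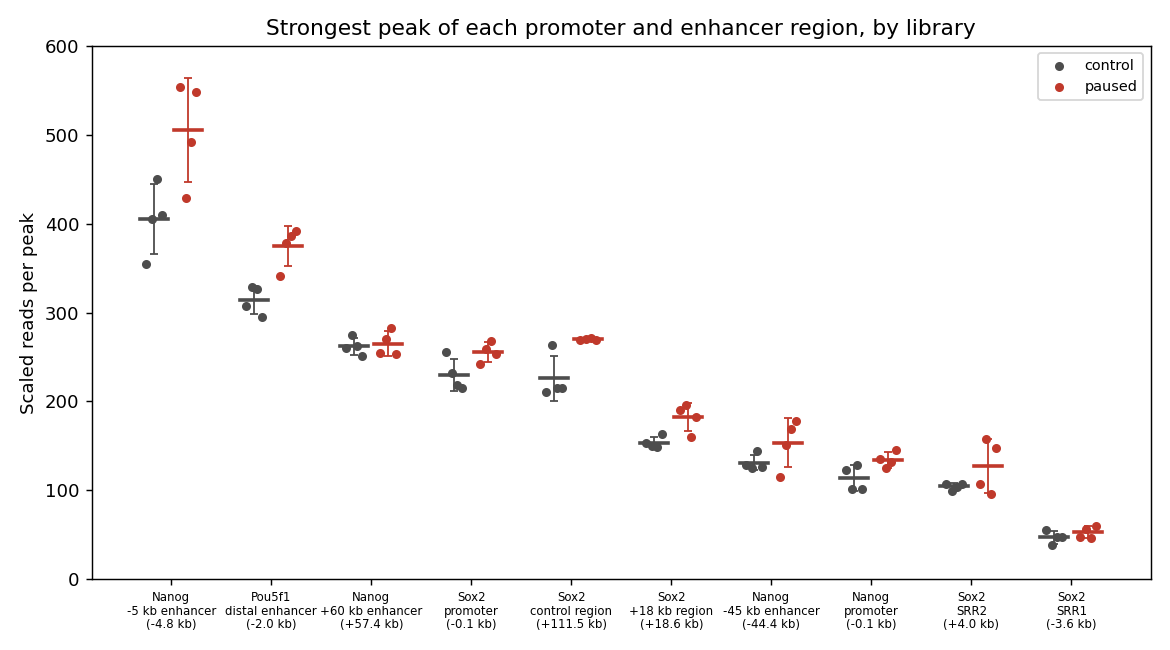
Scaled reads of the strongest peak in each promoter or enhancer window, ordered by the control mean; points are single libraries, thick bars the means and thin bars the SD of 4 libraries. The groups are apart at the Pou5f1 distal enhancer and the Sox2 control region and overlap at the other 8 peaks. Of all tested peaks, 17.4% have groups that do not overlap.

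The ratio of an enhancer peak to the promoter peak of the same gene within a library does not depend on the factor by which that library was scaled. Of 7 such ratios none passed in an exact two-sided permutation test over 70 arrangements, whose smallest p is 0.0286 (Benjamini-Hochberg adjusted p = 0.914 for each). After adjustment over 7, a single ratio could not have passed even at that smallest p. For Nanog, the log2 ratio of the -5 kb enhancer was 1.84 ± 0.227 in control and 1.91 ± 0.103 in paused libraries (SD, n = 4; exact permutation p = 0.657). The largest difference was -0.23, for the +60 kb enhancer, from 1.21 ± 0.192 to 0.98 ± 0.151 (SD, n = 4; exact permutation p = 0.171). The -45 kb enhancer differed by -0.035 (exact permutation p = 0.857). For Sox2 the differences were 0.0089 for SRR1, 0.10 for SRR2, 0.088 for the +18 kb region and 0.11 for the control region, with exact permutation p of 0.914, 0.600, 0.486 and 0.343. With 1 library left out, the differences for SRR1, SRR2 and the -5 kb and -45 kb enhancers changed sign. Pou5f1 has no such ratio, since its promoter window held no peak.

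**Figure D4:**
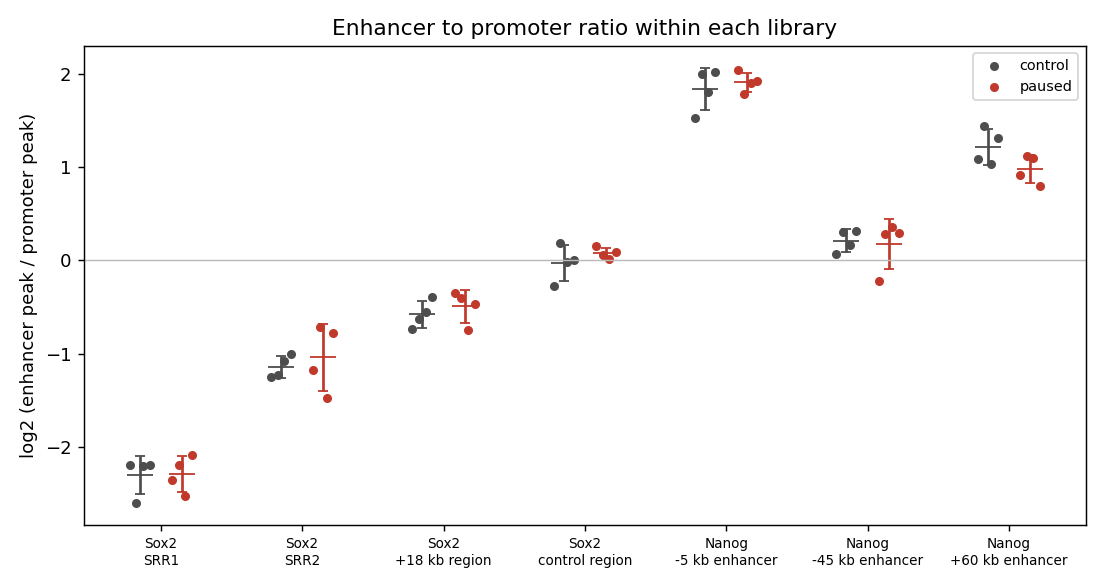
Log2 ratio of the strongest peak of each enhancer window to the promoter peak of the same gene, in each of 4 control and 4 paused libraries, with mean and SD. The ratios run from below -2 at SRR1 to near 2 at the -5 kb enhancer of Nanog, and the groups overlap at all 7.

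Summed over each locus, the values were 1948 ± 72.3 and 2172 ± 82.5 at Pou5f1, 2527 ± 87.5 and 2710 ± 164 at Sox2, and 4209 ± 214 and 4608 ± 213 at Nanog (control and paused, SD, n = 4 each). The groups were apart at Pou5f1 and overlapped at Sox2 and Nanog. The paused sums were 1.12, 1.07 and 1.09 times the control sums, against 1.12 for all peaks. With TMM factors these ratios were 1.04, 1.00 and 1.02, and scaled to the total reads in peaks 1.00, 0.962 and 0.981.

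At the edges of the windows, the farthest peaks taken and the nearest ones left out were as follows. Beyond +111.2 kb of Pou5f1 the next peak, at +128.7 kb, had a mean of 13.3 in control and 6.31 in paused libraries. Beyond -118.5 kb of Sox2 the next, at -164.2 kb, had 24.6 and 32.6, and beyond +122.2 kb (35.9 and 26.4) the next, at +123.9 kb, had 117 and 112. Beyond -116.2 kb of Nanog (42.2 and 38.8) the next, at -124.5 kb, had 12.6 and 5.95, and beyond +127.0 kb (69.5 and 58.1) the next, at +162.5 kb, had 54.5 and 39.2.

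The wider network was followed through 25 genes that work with OCT4, SOX2 and NANOG, such as Esrrb, Klf4, Tfcp2l1 and Zfp42. Dppa3 and Gdf3 are among the 25. Their 11 and 3 tested peaks also count as peaks around Nanog, with the called one at -82.8 kb. There were 290 tested peaks that lay nearest to one of the 25 genes and at most 50 kb from its end. Of these, 48 rose and 5 fell (16.6% and 1.72%), against 9.92% and 3.00% of all peaks as near to a protein-coding gene end. Of all tested peaks, 11.0% rose and 2.91% fell. The median log2 change was 0.16, against 0.09 for all peaks as near to a gene end. These contrasts were not matched on strength. Of the higher calls, 7 lay at Zfp42, 5 at Tfcp2l1 and 5 at Tbx3, and peaks of 1 gene are not independent. Under other scalings the higher calls were fewer and the median smaller, in the whole table too. Of the 290, edgeR with TMM gave 31 up and 13 down, TMM rescaling 28 and 8, the loess correction 25 and 7, and DESeq2 15 and 3. Of all tested peaks these settings in turn called 7.13% higher and 5.54% lower, 5.99% and 4.15%, 5.10% and 3.50%, and 3.06% and 1.49%. The medians of the network peaks were 0.05 to 0.06, against -0.011 to 0.001 for all tested peaks. Among the 20 genes with a peak within 1 kb of an end, that peak rose at 4 and fell at 0, against 11.3% and 0.780% of all protein-coding genes.

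The 4 were those of Tbx3 (log2 change 0.42, limma-trend adjusted p = 0.00936), a T-box factor gene, Zfp42 (0.40, adjusted p = 0.0117), a zinc finger gene also called Rex1 and a marker of naive cells, Zscan10 (0.32, adjusted p = 0.0370) and Fbxo15 (0.36, adjusted p = 0.0250), an early target of OCT4. The peak of Zfp42 had 217, 176, 227 and 210 in control and 254, 279, 281 and 279 in paused libraries. These groups were apart, as they were at Tbx3 and Zscan10 but not at Fbxo15.

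Of 9 genes of formative and primed cells, 89 peaks were tested, 11 were called higher and 7 lower (12.4% and 7.87%, against the same 9.92% and 3.00%), and the median change was 0.08. This direction depends on the scaling. The calls were 2 higher and 5 lower in DESeq2, 6 and 7 with TMM rescaling, 7 and 9 in edgeR with TMM, and 2 and 9 after the loess correction. Of all tested peaks these settings in turn called 3.06% higher and 1.49% lower, 5.99% and 4.15%, 7.13% and 5.54%, and 5.10% and 3.50%. The medians of the formative and primed peaks were -0.056 to -0.025, against -0.011 to 0.001 for all tested peaks. None of the 7 peaks at an end of these genes was called. Calls gathered at single genes in the limma-trend fit of the deposited values. At Otx2, a factor that drives cells out of the naive state, 5 of 14 were higher. At Foxd3, 4 were higher and 1 lower of 13, and at Pou3f1, which encodes OCT6, 4 of 14 were lower. Since the whole list had 2 higher calls in DESeq2 and 2 after the loess correction, the higher counts at Otx2 and Foxd3 did not hold there. Peaks of one gene are not independent.

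**Figure D5:**
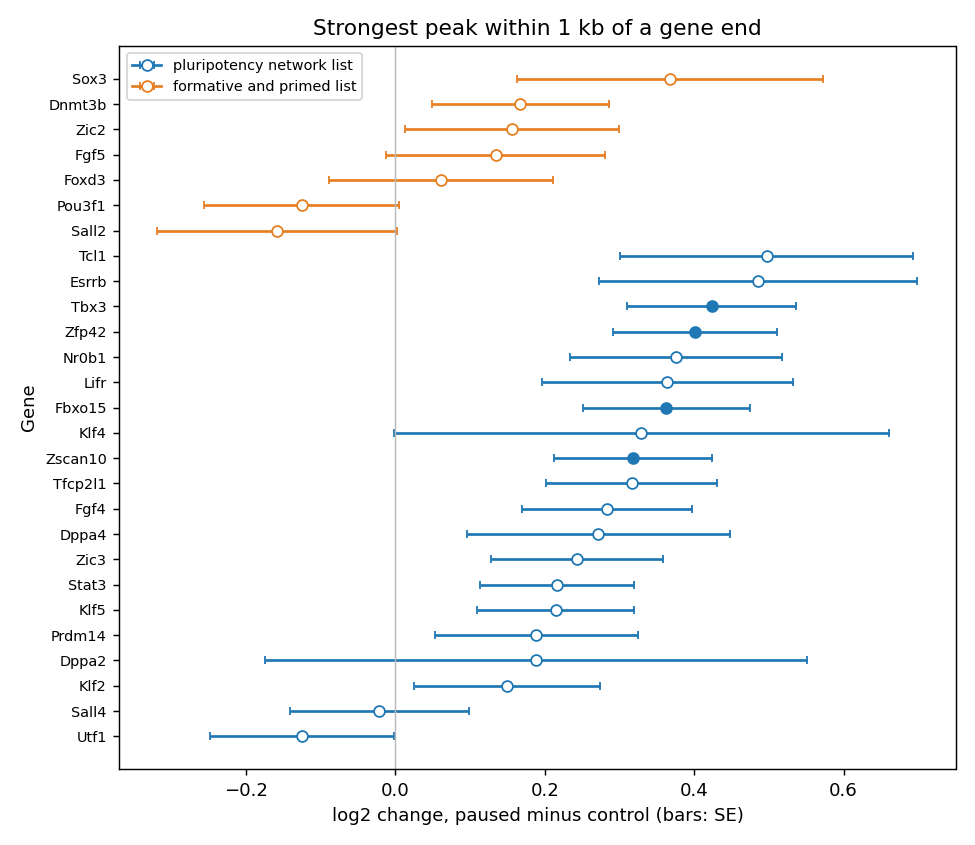
Log2 change, paused minus control, with SE, of the strongest peak within 1 kb of a gene end for 20 genes of the pluripotency network and 7 of formative and primed cells; filled points have an adjusted p under 0.05. The 4 filled points, Tbx3, Zfp42, Fbxo15 and Zscan10, lie between 0.32 and 0.42.

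The protein-coding genes whose summed peaks within 10 kb followed most closely those of each gene over the 8 libraries were sought among 14851. For Pou5f1, with 4 such peaks, they included Sec24a (Pearson r = 0.990) and Pwp2 (0.990). For Sox2, with 6 peaks, they were Fibcd1 (0.957), Cyp4a31 (0.955) and Ccdc107 (0.954), and for Nanog, with 6 peaks, Zfp672 (0.988), Nradd (0.981) and Kcnj10 (0.975). These are descriptions over 8 libraries that share the same scaling factors, and the highest of many values.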

How the data were processed

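Libraries of 4 control and 4 paused samples, taken from the sample titles, were sequenced with 150 bp paired-end reads. The submitters' processing notes name FastQC, Trim Galore, Bowtie2 2.4.1, MACS3 3.0.3 and DiffBind 3.16.0 and the build mm10 (GRCm38). Their settings, and any handling of the Tn5 offset, are not given in the sources used here. The deposited table has 1 peak set for all samples, with a signal per sample that is reads divided by 1 factor per sample, which was worked out from the values: 100% were whole multiples of 1 step. How the authors made the factors is not stated. The log2 fold and the p-value and FDR columns, per the file headers, are the authors' own comparison and were used only where their table is named. No sample column was left unused (0).

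The 127402 peaks whose values averaged 10 or more were tested with limma-trend (limma 3.58.1, R 4.3.3) on log2(value + 1), which understates changes of weak peaks, with Benjamini-Hochberg adjustment over all of them and a threshold of 0.05. Alternatives were a pseudocount of 0.1, no filter or a minimum of 50, TMM rescaling, a loess correction on strength (span 0.3), edgeR 4.0.16 and DESeq2 1.42.0 on the recovered reads, a replicate block, each sample left out, and windows of 50 kb (20 kb for the gene lists). On simulated data with 200 changed peaks of 125942, limma-trend called 143 with 1 false call, edgeR 152 with 2, and DESeq2 134 with 3. The planted changes, in both directions, were larger than most reported here. The simulation had a fixed relative spread between libraries and no shift over the table or with strength. Its false calls therefore give no error rate for these data, and whether these figures hold for changes of the size reported here was not tested. Same-numbered samples were checked for pairing and not treated as pairs.

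Genes came from RefSeq on GRCm38.p6, as spans without exons, so that exonic or intronic position was not analysed here. Named peaks are all those in promoter and enhancer windows, and per locus the 3 strongest and the 3 called with the smallest adjusted p. The genes with the most similar pattern to each of the 3 genes were taken by Pearson r, and 1 of them is not reported here. The genes, windows, lists and peaks were chosen with earlier results of these data known. Intervals cover the spread between libraries, and the 3-read floor covers counting error only.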

Additional observations from a re-analysis of the deposited data

Results flagged for a closer look

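In 74 groups of 4 values (27 named peaks, 7 enhancer ratios and 3 locus sums, in each treatment), 6 had 1 library whose gap to the nearest other, divided by the range of the group, was above Dixon's 95% critical value. Chance gives about 1 in 20. The share was 0.874 for the +63.04 kb peak of Pou5f1 in paused libraries, where paused 1 (21.9) was above the other three (11.04 to 12.4). It was 0.909 for the control region peak at +111.5 kb of Sox2, where control 2 (264) was above the others (210 to 215). Of all alternatives, that peak passed only without control 2 (log2 change 0.34, limma-trend adjusted p = 0.0371). The share was 0.896 for the control region peak at +114.9 kb, where control 1 (46.0) was above the others (39.0 to 39.7). It was 0.875 for the +63.1 kb peak of Nanog, where paused 3 (216) was above the others (171 to 177), and that peak kept its call without it (limma-trend adjusted p = 0.00507). For the ratio of SRR1 to the Sox2 promoter it was 0.966, with control 2 at a log2 ratio of -2.60 against -2.20 to -2.19. For the ratio of the -45 kb enhancer to the Nanog promoter it was 0.868, with paused 1 at -0.23 against 0.28 to 0.36.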

How the results depend on the processing

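The peaks at -82.8 kb and +63.1 kb of Nanog kept their direction and call in all 17 alternatives. The peak at -118.5 kb of Sox2 kept them in 16, which is no sign of stability, since it passed the minimum of 10 only through its paused values. Depth limits the weak peaks most, since the median peak holds 18 reads in control 3.

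Counts of called peaks moved by more than 1.5 times in these settings. DESeq2 called 5794 peaks in the whole table, 0 at Pou5f1, 2 at Nanog, 18 for the pluripotency network and 7 for the formative and primed list. The loess correction called 10956 in the whole table, 0 at Pou5f1, 3 at Sox2, 32 for the network and 11 for the formative list. TMM rescaling and edgeR with TMM each called 3 at Sox2. A minimum of 50 gave 10910 of 45273 tested peaks in the whole table, 0 of 14 at Sox2 and 11 of 40 for the formative list. Windows of 50 kb held 0 called of 15 tested peaks at Pou5f1, 0 of 21 at Sox2 and 2 of 21 at Nanog. Windows of 120 kb held 3 of 26, 1 of 42 and 4 of 51. Of 179 network peaks tested within 20 kb, 29 were called, against 53 of 290 within 50 kb. Of all tested peaks, 13.9% were called. Fewer peaks were tested in the narrower windows, so the counts alone do not show a loss of calls near the genes.

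The replicate block called 21994 peaks in the whole table, 6 at Pou5f1, 1 at Sox2 and 6 at Nanog, 1 of these lower. Among them were the distal enhancer peak of Pou5f1 at -2.0 kb (limma-trend adjusted p = 0.0418), that at +85.1 kb of Pou5f1 (0.0403) and that at +103.5 kb of Nanog (0.0409). The peaks at -2.0 kb of Pou5f1 and +103.5 kb of Nanog passed in no other alternative, with log2 changes down to 0.04 and 0.02. That at +85.1 kb also passed with a minimum of 50 and without paused 3, but not after the loess correction (limma-trend adjusted p = 0.571). The same-numbered libraries correlated in their deviations by 0.0790, 0.0358, 0.133 and 0.0395, and the numbers were not taken as pairs, although each library correlated best with its own number except control 2 (best with paused 1, 0.0703) and paused 2 (best with control 1, 0.0617).

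With TMM factors the locus sums of paused over control libraries were 1.04 at Pou5f1, 1.00 at Sox2 and 1.02 at Nanog, and with total reads 1.00, 0.962 and 0.981. These changes reversed their sign: SRR1 of Sox2 to -0.0097 in edgeR with TMM, the Sox2 promoter to -0.053 after loess, the +101.7 kb peak to -0.042 in DESeq2 and -0.086 in edgeR with TMM, and the +117.1 kb peak to -0.020 in DESeq2 and -0.052 with TMM rescaling. The Nanog +57.4 kb peak went to -0.096 in DESeq2 and in edgeR with TMM, -0.087 with TMM rescaling and -0.193 after loess. The causes were not tested.

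With 1 library left out, the calls ranged from 11567 to 15806 in the whole table, 0 to 4 at Pou5f1, 1 to 2 at Sox2, 2 to 4 at Nanog, 34 to 54 for the network and 10 to 19 for the formative list. Pou5f1 had 0 without control 1, and 1 without control 4 or paused 4. Sox2 had 2 without control 2, control 3 or paused 4. Nanog had 2 without control 1, control 4 or paused 1. The log2 change ranged from -0.546 to 0.084 for the +16.9 kb peak of Sox2, from -0.055 to 0.110 for the +117.1 kb peak, and from -0.016 to 0.037 for the +57.4 kb peak of Nanog. The difference in the log2 ratio to the promoter ranged from -0.092 to 0.089 for SRR1, -0.0064 to 0.249 for SRR2, 0.035 to 0.173 for the +18 kb region, 0.024 to 0.180 for the control region, and for Nanog from -0.031 to 0.132 (-5 kb), -0.096 to 0.099 (-45 kb) and -0.293 to -0.157 (+60 kb). The +85.1 kb peak of Pou5f1 passed without paused 3 (limma-trend adjusted p = 0.0223) and in no other fit with 1 library left out.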
